A study of Mus musculus with 8 samples.

Results

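Loss of both pRb and p53 was compared with control skin on 4 of the 8 oligonucleotide arrays of the series, 2 with RNA of pRb-/-;p53-/- mice (double_null) and 2 with RNA of control mice. The arrays were chosen by the genotype in their titles, and all 22626 probe sets that are not controls of the array itself were compared. A probe set is a group of short probes that together read a transcript. The other 4 arrays held skin that lacked pRb alone (pRb_null, 2 arrays) or p53 alone (p53_null, 2 arrays) and entered the same fit. Every array was hybridized with total RNA of whole skin from newborn mice of the inbred, albino strain FVB, pooled from 3 animals of a genotype. Rb1 and Trp53, the genes of pRb and p53, had been inactivated somatically in stratified epithelia. Not given in the sources used here are the promoter that drove the deletion, the alleles of the control mice and the share of skin cells that had lost the genes. Nor is it stated that both arrays of a genotype came from separate pools. The p-values therefore measure the spread between arrays only, and that spread may be technical. The number of arrays limits the precision.

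pRb binds E2F transcription factors and holds cells back from S phase, and p53 is a transcription factor that answers DNA damage and stress with arrest or cell death. Skin of a newborn mouse holds a stratified epidermis, whose basal cells divide and whose upper layers build the cornified barrier, and hair follicles in their first growth. The growing follicle makes hair keratins and keratin-associated proteins for the shaft, wraps the shaft in an inner root sheath, and holds pigment cells, which make no pigment in an albino strain. Stressed epidermis is known to express the keratins of wounds and small antimicrobial proteins.

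Each deposited value is a standardized score, so a probe set has mean 0 and SD 1 over the 8 arrays. Every difference below is in units of a probe set's own SD, and neither a level nor a fold change can be read from it. That SD is taken over the same 8 arrays, so it includes the difference between genotypes and caps how large a difference can be. The largest called difference was 2.61 in size. Differences near it show that the arrays were apart, not how large the change in RNA was. For the same reason the labelled tissue cannot be checked by the level of its markers, and only their differences are given. Over all probe sets, the control arrays correlated with each other with r = 0.131 and the double_null arrays with r = 0.185. Pairs of arrays of different genotypes had r from −0.388 to 0.093, and standardization by itself pulls correlations between arrays below 0, so the negative values are no measure of a difference.

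Structural genes of the hair were lower in skin that lacked pRb and p53 than in control skin. Genes of stressed epidermis and fat use, and 1 gene of antigen presentation, Cd74, were among those that were higher. The test was limma's ordinary linear model over all 8 arrays with 4 residual degrees of freedom, and a probe set was called at a Benjamini-Hochberg adjusted p under 0.05. It called 192 probe sets (0.849% of those tested), 119 lower (0.526%) and 73 higher (0.323%) in double_null. The probe sets called lower covered 104 named genes and those called higher covered 69. Without adjustment, 2246 probe sets were lower (9.93%) and 1973 were higher (8.72%) at a p under 0.05, and the median difference over all probe sets was −0.01. Leaving out any 1 of the 8 arrays left 1 to 8 calls, the fewest without either double_null array, quantile normalization left 1, and limma's moderated test and a fit of only the 4 arrays compared called 0. All 192 kept their direction under these alternatives.

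Rb1 was measured by 1 probe set. It scored 1.2 and 0.8 on the control arrays, −0.71 and 0.44 on those of pRb_null, 0.5 and 0.22 on those of p53_null and −0.55 and −1.9 on those of double_null. Both double_null arrays lay below both control arrays, but the difference of −2.23 ± 0.65 (SE, n = 2 arrays each) did not pass the test (adjusted p = 0.206). Whether the probe set reads the stretch that was deleted is unknown here, and whole skin holds cells that were not targeted, so its score is no check of the genotype. Trp53, the gene of p53, was not analysed here.

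**Figure D1:**
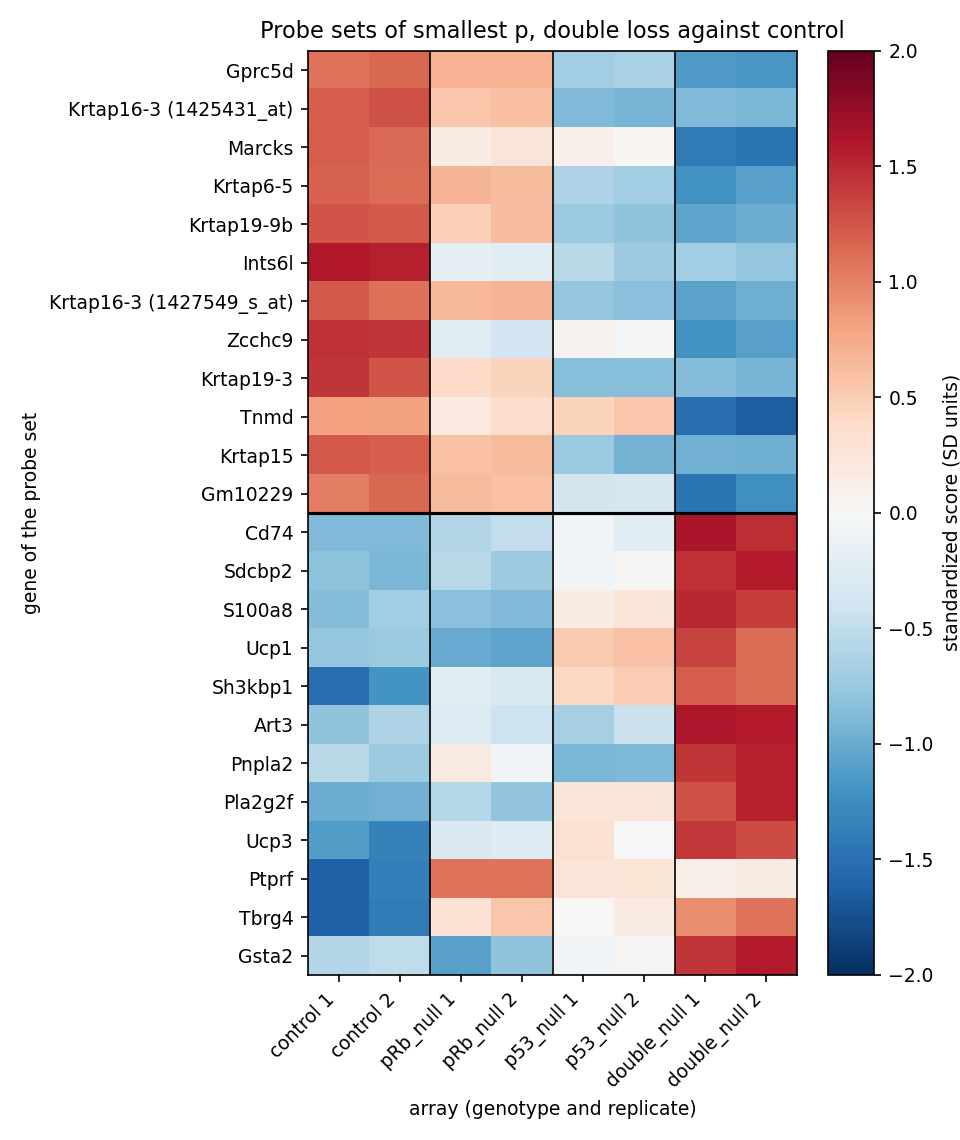
Standardized score (SD units, colour) of the 12 probe sets of smallest p that were lower in double_null (above the line) and the 12 that were higher (below it), on each of the 8 arrays. In every row the 2 control arrays have like colours and the 2 double_null arrays lie on the other side of 0, close to 0 for Ptprf (0.11 and 0.15). The rows were chosen by p among called probe sets whose arrays do not overlap, so this separation follows from the choice.

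Genes of the hair shaft and its sheath made up 32 of the 119 probe sets called lower (26.9%), although the 3 lists of hair structure genes held 50 probe sets, 0.221% of those tested. These lists were of hair keratins, of inner root sheath genes and of keratin-associated proteins. Of the 50 probe sets, 32 were called lower (64.0%) and 0 higher, at differences from −2.55 to −2.07. In 46 of the 50 both double_null arrays lay below both control arrays (92.0%), against 26.2% of all probe sets, and in 2 they lay above, against 25.0%. The median difference over the 50 was −2.29. In bulk RNA, fewer follicle cells and less RNA per follicle cell cannot be told apart.

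Gprc5d, an orphan receptor of the cells that form hard keratin, had the smallest p of all probe sets. Its scores were 1.09 and 1.15 in control and −1.13 and −1.16 in double_null, a difference of −2.26 ± 0.03 (SE, n = 2; adjusted p = 0.00245). The arrays of a genotype were almost equal and the genotypes far apart, which is what a smallest p selects. It scored 0.7 and 0.69 in pRb_null and −0.69 and −0.65 in p53_null, so its double_null arrays lay lowest of the 4 genotypes.

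The hair keratins are the intermediate filaments of the shaft. Of their 12 probe sets, 9 were called lower: Krt31, Krt32, Krt33a, Krt33b, Krt34, Krt35, Krt81, Krt83 and Krt86. Krt35, a keratin of the lowest part of the shaft, scored 0.85 and 0.96 in control and −1.51 and −1.33 in double_null, a difference of −2.32 ± 0.10 (adjusted p = 0.0201). Krt33b scored 1.35 and 1.13 in control and −1.36 and −1.27 in double_null (−2.55 ± 0.16, adjusted p = 0.0327). The arrays of Krt35 and Krt33b did not overlap, nor did those of any other member of the list. Krt36 and Krt82 differed by −1.75 and −2.21 without passing the test. Krt84, which is known from the tongue and nail as well, was the exception in direction: it scored −1.17 and −1.13 in control and 0.51 and 1.64 in double_null (2.23 ± 0.53, adjusted p = 0.160).

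The inner root sheath moulds the shaft as it rises. Of its 7 probe sets 4 were called lower and all 7 had double_null arrays below the control arrays, with a median of −2.33. Krt25, a keratin of the sheath, scored 0.78 and 0.95 in control and −1.59 and −1.4 in double_null (−2.36 ± 0.13, adjusted p = 0.0283). Tchh, the trichohyalin that fills sheath cells, scored 0.93 and 0.86 in control and −1.38 and −1.48 in double_null (−2.33 ± 0.14, adjusted p = 0.0288). Krt71, the partner of Krt25, and Padi3, an enzyme that modifies trichohyalin, were also called, and Krt72 lay just outside the threshold (−2.19, adjusted p = 0.0507).

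Keratin-associated proteins cross-link the keratin filaments of the shaft. Of 31 probe sets for 26 such genes 19 were called lower, with a median of −2.23, and they held 6 of the 12 named probe sets of smallest p among those called lower. Krtap16-3 was the only gene with 2 probe sets called. Its first probe set scored 1.2 and 1.27 in control and −0.89 and −0.91 in double_null (−2.13 ± 0.03, adjusted p = 0.00245), and its second scored 1.23 and 1.1 in control and −1.07 and −0.98 in double_null (−2.18 ± 0.06, adjusted p = 0.0131). Krtap6-5 scored 1.18 and 1.11 in control and −1.21 and −1.09 in double_null (−2.29 ± 0.06, adjusted p = 0.0122). The double_null arrays of both genes lay below all other arrays of their probe sets except those of p53_null at the first Krtap16-3 probe set, which scored −0.89 and −0.93. The exceptions of the list were Krtap13, with a difference of 0.06, and the second probe set of Krtap19-1, with 1.44 against −2.30 for the first. These genes are near copies of each other, so probes can read more than 1 of them and single members are uncertain.

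The hair genes lie next to each other in the genome. Of the 104 genes called lower, 27 had an adjacent measured gene that was also called lower (26.0%), among 12375 genes placed in order, while 0 of the 69 called higher had a called neighbour. All 27 were keratins, keratin-associated proteins or the predicted genes Gm10228, Gm10229 and Gm11567 among them, so they lie in the keratin and keratin-associated clusters and are not independent of each other. The neighbours ran from Krtap3-1 to Gm11567 and from Krt33a to Krt35, over Krt81, Krt83 and Krt86, and from Krtap14 to Krtap6-5.

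Promoters of these genes were searched because the members moved together. LEF1 and the TCF factors, which carry the Wnt signal that drives the hair shaft, bind stretches of 7 letters, and those searched were CTTTGAA and its variant CTTTGAT, and besides them CTTTGTA with its variant CTTTGTT. The stretches below are the 250 bases before the start of 6 hair genes called lower, 5′ to 3′ on the gene's strand, from RefSeq with build GRCm38.p6, with every match on either strand in capitals.
Krt31, chr11:100050552-100050801, minus strand: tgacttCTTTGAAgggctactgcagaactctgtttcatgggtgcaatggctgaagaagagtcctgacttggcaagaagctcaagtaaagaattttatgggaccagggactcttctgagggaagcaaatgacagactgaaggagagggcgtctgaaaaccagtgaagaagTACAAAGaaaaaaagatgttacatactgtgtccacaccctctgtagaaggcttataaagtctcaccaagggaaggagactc
Krt33b, chr11:100029869-100030118, minus strand: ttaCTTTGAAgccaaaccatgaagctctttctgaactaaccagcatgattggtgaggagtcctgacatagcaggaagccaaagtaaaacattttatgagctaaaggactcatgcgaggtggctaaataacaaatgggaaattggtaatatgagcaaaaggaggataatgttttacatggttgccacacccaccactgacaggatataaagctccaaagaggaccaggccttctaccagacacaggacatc
Krt34, chr11:100041555-100041804, minus strand: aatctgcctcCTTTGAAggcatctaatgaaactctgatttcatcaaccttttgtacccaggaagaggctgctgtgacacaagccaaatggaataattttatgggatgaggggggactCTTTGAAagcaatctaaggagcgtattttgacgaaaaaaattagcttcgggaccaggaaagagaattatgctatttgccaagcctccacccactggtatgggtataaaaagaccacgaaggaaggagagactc
Krt25, chr11:99322952-99323201, minus strand: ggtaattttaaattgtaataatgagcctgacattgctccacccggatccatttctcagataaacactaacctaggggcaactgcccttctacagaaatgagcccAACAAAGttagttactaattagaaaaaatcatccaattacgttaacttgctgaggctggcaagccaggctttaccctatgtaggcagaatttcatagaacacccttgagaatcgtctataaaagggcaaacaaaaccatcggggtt
Krtap16-3, chr16:88962874-88963123, minus strand: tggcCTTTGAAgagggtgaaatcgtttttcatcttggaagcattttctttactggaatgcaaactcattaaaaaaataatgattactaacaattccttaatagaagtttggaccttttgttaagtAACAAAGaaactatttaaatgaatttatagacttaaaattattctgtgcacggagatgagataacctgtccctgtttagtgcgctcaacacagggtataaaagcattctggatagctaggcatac
Krtap19-3, chr16:88878039-88878288, minus strand: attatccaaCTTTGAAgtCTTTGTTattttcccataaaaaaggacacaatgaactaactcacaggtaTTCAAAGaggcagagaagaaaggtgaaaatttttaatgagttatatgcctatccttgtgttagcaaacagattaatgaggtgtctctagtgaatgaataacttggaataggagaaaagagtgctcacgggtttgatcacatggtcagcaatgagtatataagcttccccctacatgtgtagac

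In the keratin promoters printed, the match CTTTGAA began at −244 relative to the start of Krt31, at −247 in Krt33b and at −240 in Krt34, with a second match at −81 in Krt31 and at −133 in Krt34. Over the full window of 250 bases before to 50 after the start, 14 of the 26 hair genes called lower with a window held at least 1 match (53.8%). The share was 12.1% of the other genes called lower, 18.0% of the genes called higher, 15.1% of all measured genes and 16.9% of all 32851 windows of the same length. TATAAA, the letters of the TATA box, stood in 69.2% of the hair genes, 17.2% of the others called lower, 24.6% of those called higher, 11.9% of measured genes and 13.6% of all windows. Neighbouring keratin genes arose by duplication and share promoter sequence, so these shares do not rest on independent genes.

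The other 4 of the 6 motifs searched, all on both strands, were found in fewer of the hair genes. Letters bound by E2F, the partner of pRb, which were TTTCGCG and its variants TTTGGCG and also TTTCCCG, were in 0 of the 26 hair windows, 8.62% of the other genes called lower, 4.92% of those called higher, 9.88% of measured genes and 5.58% of all windows. The AP-1 site TGACTCA was in 11.5% of the hair genes, 6.9% of the others called lower, 13.1% of those called higher, 5.64% of measured genes and 5.2% of all windows. The CRE site TGACGTCA was in 0 of the 26 hair windows, 8.2% of the genes called higher, 2.99% of measured genes and 1.79% of all windows. The HOXC13 letters were TTTATAGC, which overlaps the TATA box read on the other strand, and also TTTATTGC as well as TTTATGGC; they were in 3.85% of the hair genes, 2.33% of measured genes and 2.51% of all windows. A match describes the letters only, and no match says only that the letters are not in this window.

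**Figure D2:**
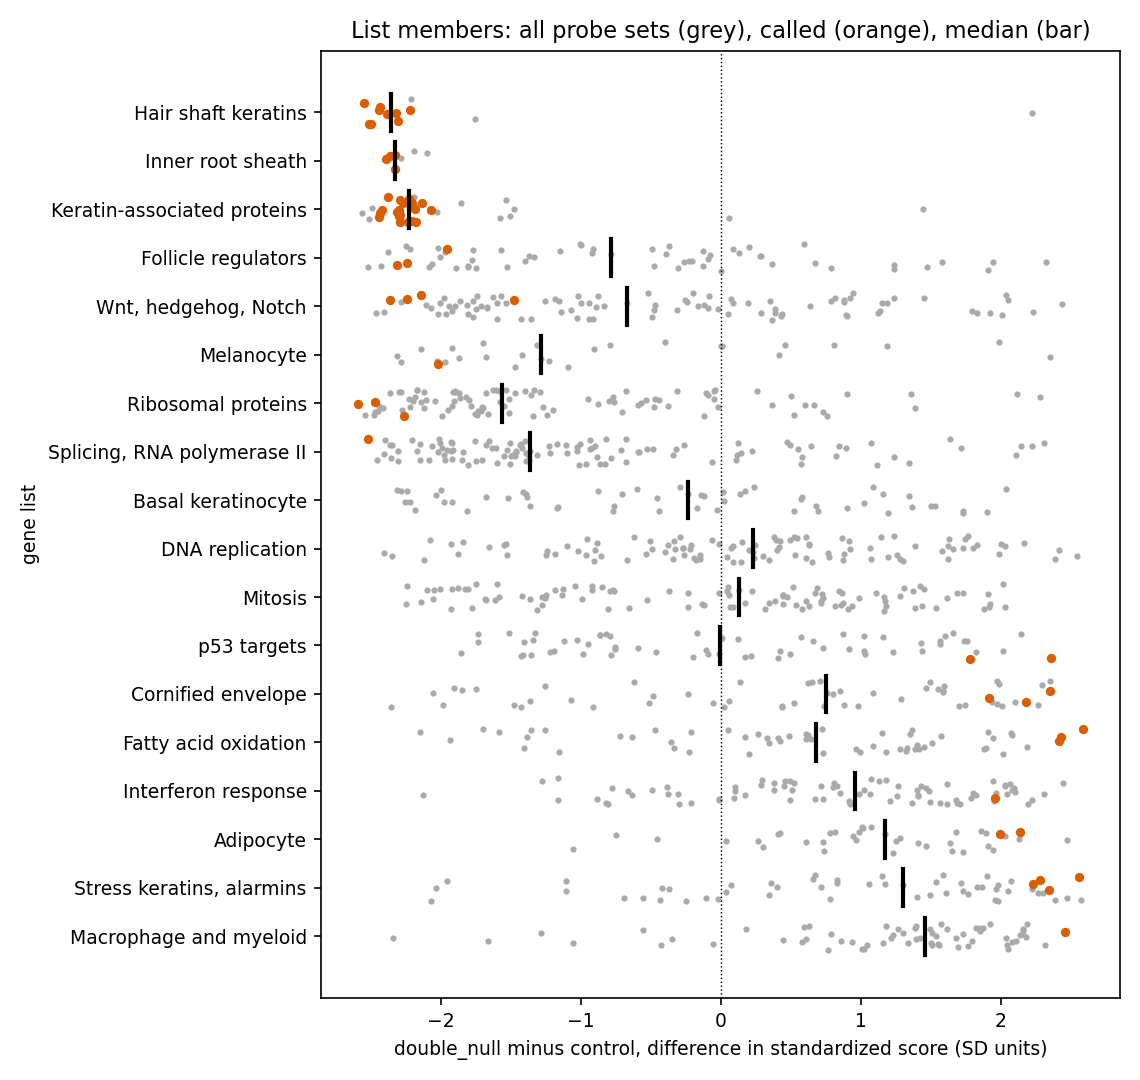
Difference between double_null and control (SD units) of every probe set in 18 gene lists, with called probe sets in orange and the median of each list as a bar. The 3 hair structure lists lie between medians of −2.35 and −2.23, and the highest median is that of the macrophage and myeloid list (1.46).

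Among 59 probe sets for 37 regulators of the follicle, 3 were called lower (0.526% of all probe sets were) and 0 higher, and the median was −0.78. Without adjustment 20 were lower and 2 higher (33.9% and 3.39%, against 9.93% and 8.72% of all probe sets). Msx2, a homeobox factor of the hair matrix, scored 0.82 and 0.97 in control and −1.53 and −1.3 in double_null (−2.31 ± 0.14, adjusted p = 0.0288). Cux1 fell by 1.95 at the called probe set, and its 5 other probe sets differed by −2.22, −1.97, −0.48, −0.12 and 0.2. Sox9, a factor of the outer root sheath and of follicle stem cells, differed by −2.42 ± 0.24 without passing the test (adjusted p = 0.0552).

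Components of the signals that build the follicle were called lower at 4 of 95 probe sets for 56 genes of the Wnt, hedgehog and Notch pathways. None was called higher, and 0.526% of all probe sets were called lower. Without adjustment 21 of the 95 were lower and 6 higher (22.1% and 6.32%, against 9.93% and 8.72% of all probe sets). Notch1, a receptor of suprabasal and hair cells, scored 1.14 and 1.09 in control and −1.35 and −1.14 in double_null (−2.36 ± 0.15, adjusted p = 0.0322). Wnt5a, a ligand, scored 0.72 and 0.67 in control and −1.63 and −1.27 in double_null (−2.14 ± 0.17, adjusted p = 0.0377). The arrays of both genes were clearly apart, and their p53_null arrays lay between, from −0.66 to −0.36 for Notch1 and from −0.26 to −0.05 for Wnt5a. Fzd6, a Wnt receptor, fell by 2.24, but there the arrays of the single losses lay close to those of the double loss, at −0.53 and −0.54 for pRb_null, −0.32 and −0.56 for p53_null and −0.73 and −0.53 for double_null. Hhip, which binds and holds back hedgehog ligands, was different again: it scored 0.01 and −0.07 on the control arrays, 0.7 and 0.57 on those of pRb_null, 1.04 and 0.76 on those of p53_null and −1.55 and −1.46 on those of double_null. Its difference from control was −1.48 ± 0.12 (adjusted p = 0.0382). Its second probe set differed by only −0.12 (unadjusted p = 0.86 in limma's test), so this pattern rests on 1 of 2 probe sets. The second probe sets of Notch1, Wnt5a and Fzd6 differed by −1.94, −1.86 and −0.91.

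Dct, an enzyme of melanin synthesis, was the only gene of the melanocyte list called, and it was lower in double_null. It scored 0.43 and 0.43 in control and −1.85 and −1.33 in double_null (−2.02 ± 0.18, adjusted p = 0.0453). Both pRb_null arrays and both p53_null arrays lay between 0.41 and 0.74, so only the double_null arrays stood apart. Pmel, the protein of melanosome fibres, scored 0.55 and 0.31 in control and −1.86 and −1.33 in double_null (−2.03 ± 0.21, adjusted p = 0.0561). Tyrp1 and Mitf, the pigment lineage's second oxidase and its master factor, differed by −2.14 and −2.29 without passing the test. Of 27 probe sets for 14 melanocyte genes, 1 was called lower (0.526% of all probe sets were). Without adjustment 11 were lower (40.7%, against 9.93% of all probe sets). The list's median was −1.28 for double_null, 0.30 for pRb_null and 0.03 for p53_null. The interaction at Dct, that is the difference of double_null beyond the sum of the single losses, was −2.31 with an adjusted p of 0.206.

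In the list of stress genes of the epidermis the calls went the other way. Of 55 probe sets for 41 stress keratins, alarmins and wound genes, 4 were called higher (0.323% of all probe sets were) and 0 lower. Without adjustment 21 were higher (38.2%, against 8.72% of all probe sets), and the median was 1.30. S100a8, a subunit of the antimicrobial protein calprotectin, scored −0.86 and −0.7 in control and 1.51 and 1.38 in double_null (2.23 ± 0.08, adjusted p = 0.0173). Krt16, a keratin of wounded and stressed epidermis, scored −0.94 and −0.74 in control and 1.5 and 1.38 in double_null (2.28 ± 0.14, adjusted p = 0.0318). In both genes the double_null arrays lay above all 6 other arrays, with p53_null at 0.15 and 0.25 for S100a8 and pRb_null at 0.33 and 0.07 for Krt16. Il1f9, an epidermal cytokine of the interleukin 1 family, and Btc, a ligand of the EGF receptor, rose by 2.56 ± 0.16 and 2.35 ± 0.19. S100a8 is also a gene of neutrophils, and of 13 probe sets for neutrophil genes 0 were higher and 1 was lower without adjustment, with a median of 0.72 and array means of 0.06 and −0.29 in control and 0.02 and 0.83 in double_null.

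In the cornified envelope, the protein shell of the outermost cells, 3 of 54 probe sets for 47 genes were called higher and 0 lower, with a median of 0.75. In the list of barrier lipid genes 0 of 35 were called higher and 1 lower, with a median of 0.26. Of all probe sets 0.323% were called higher and 0.526% lower. Krtdap, a peptide of differentiating keratinocytes, scored −0.55 and −0.23 in control and 1.55 and 1.49 in double_null (1.91 ± 0.14, adjusted p = 0.0345). Rptn and Sprr2d, proteins cross-linked into the envelope, rose by 2.18 ± 0.17 and 2.35 ± 0.20. The envelope list did not move as a block: Sprr1a scored 0.57 and 0.96 in control and −1.46 and −1.12 in double_null (−2.05 ± 0.21, adjusted p = 0.0573). Without adjustment 7 of its probe sets were lower and 13 higher (13.0% and 24.1%, against 9.93% and 8.72% of all probe sets). Of the 6 probe sets for the suprabasal markers Krt1, Krt10, Flg and Lor, 0 reached an unadjusted p under 0.05.

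Genes of the basal layer were not called in either direction at 55 probe sets for 26 genes. Without adjustment 14 were lower and 3 higher (25.5% and 5.45%, against 9.93% and 8.72% of all probe sets). Krt5, the basal keratin, scored 0.76 and 1.58 in control and −0.88 and −1.28 in double_null (−2.25 ± 0.43, adjusted p = 0.121), while the 3 probe sets of its partner Krt14 differed by −0.03, −1.39 and −0.71, with adjusted p-values of 0.408 or more. The other defining basal markers went the other way, Itga6 by 0.14 and 1.73 and Itgb4 by 0.90, none at an unadjusted p under 0.05. Cell junction genes included 2 called lower: Nectin2, an adhesion receptor, fell by 2.54 ± 0.15 at 1 of its 2 probe sets (the other differed by −0.94), and Gjb2, a connexin of skin and hair, fell by 2.37 ± 0.20. Of 56 probe sets for 27 junction genes, 12 were lower and 5 were higher without adjustment (21.4% and 8.93%). Of all probe sets 0.526% were called lower.

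**Figure D3:**
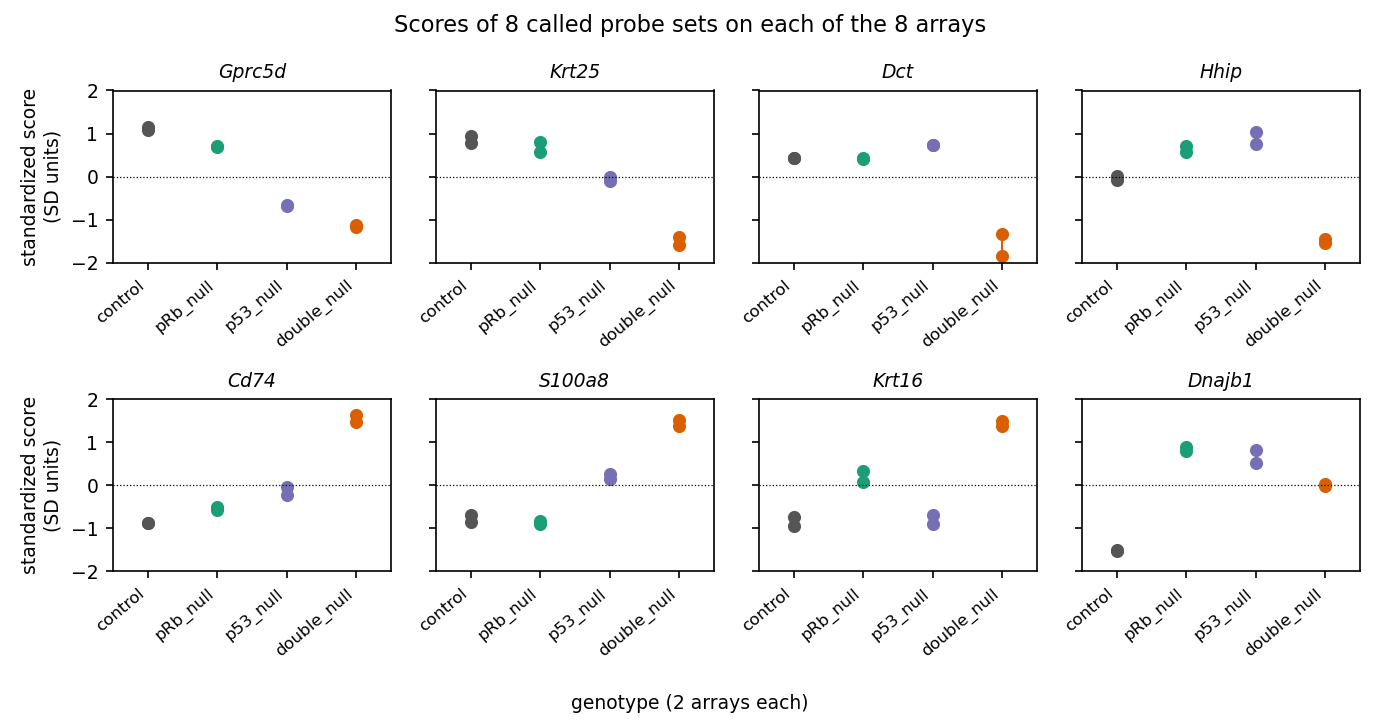
Standardized score (SD units) of 8 called probe sets on each of the 8 arrays, with 2 points per genotype joined by a line. Gprc5d falls stepwise from control to double_null, Dct and Hhip are lowest in double_null, Cd74, S100a8 and Krt16 are highest in double_null, and Dnajb1 is lowest in control (−1.53 and −1.51).

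Each of 3 lists of immune genes, those of antigen presentation, macrophages and interferon response, held 1 probe set called higher. The lists held 26, 64 and 82 probe sets, and 0.323% of all probe sets were called higher. Without adjustment 8.72% of all probe sets were higher and 9.93% lower. Cd74, the invariant chain that guides MHC class II molecules, scored −0.88 and −0.88 in control and 1.63 and 1.47 in double_null (2.43 ± 0.09, adjusted p = 0.0155). It had the smallest p of the named probe sets called higher, and pRb_null (−0.58 and −0.5) and p53_null (−0.05 and −0.22) lay nearer to control. The class II chain genes H2-Aa and H2-Ab1 differed by 1.92 ± 0.29 and 2.30 ± 0.45 at their probe sets of smallest p without passing the test, and of 26 probe sets for this list 7 were higher and 0 lower without adjustment. Among 64 probe sets for 42 macrophage and myeloid genes, 21 were higher and 1 was lower without adjustment (32.8% and 1.56%), and the median of 1.46 was the highest of the lists. Sirpa, an inhibitory receptor of myeloid cells, was the only member called (2.46 ± 0.20, adjusted p = 0.0389), and Lyz2, the lysozyme of macrophages, scored −0.95 and −0.65 in control and 1.36 and 1.67 in double_null (2.32 ± 0.35, adjusted p = 0.0926).

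The defining macrophage markers Csf1r, Adgre1, C1qa, C1qb and Lyz2 did not all differ. C1qa (1.85), C1qb (2.05 at 1 of its 3 probe sets) and Lyz2 (2.32) were higher without adjustment, whereas the 3 probe sets of Csf1r differed by 0.18, 1.70 and −1.66 and that of Adgre1 by −0.05. Interferon response genes were higher at 25 of 82 probe sets without adjustment (30.5%, against 8.72% of all probe sets) and lower at 1, with a median of 0.96. Iigp1, an immunity GTPase, scored −0.42 and −0.42 in control and 1.65 and 1.43 in double_null (1.96 ± 0.17, adjusted p = 0.0400), and its second probe set differed by 2.07. The mast cell list had a median of 1.07 with 7 of 18 probe sets higher and 0 lower without adjustment. Its protease genes Cma1, Cpa3 and Tpsab1 were higher still in p53_null, where Cpa3 scored 1.31 and 1.3 against 0.65 and 0.22 in double_null. Kit, a defining marker of mast cells, did not rise: its probe sets differed by 0.0 and −1.28, neither at an unadjusted p under 0.05. Lymphocyte genes had 4 of 42 probe sets higher and 2 lower without adjustment (9.52% and 4.76%).

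Of 39 probe sets for 23 adipocyte genes, 2 were called higher (0.323% of all probe sets were), 22 were higher without adjustment (56.4%, against 8.72%) and 0 were lower, with a median of 1.18. Ucp1, the uncoupling protein of brown fat, scored −0.78 and −0.74 in control and 1.35 and 1.12 in double_null (2.00 ± 0.09, adjusted p = 0.0242). Ucp1 scored −1.01 and −1.06 in pRb_null and 0.53 and 0.59 in p53_null, the reverse of the order of the list means given below. Pnpla2, the lipase that starts the breakdown of stored fat, scored −0.55 and −0.73 in control and 1.43 and 1.55 in double_null (2.14 ± 0.11, adjusted p = 0.0276), and its second probe set differed by −0.45. Adipoq, the fat hormone adiponectin, scored −0.19 and 0.02 in control and 0.78 and 0.52 in double_null, but 0.74 and 1.09 in pRb_null and −1.39 and −1.56 in p53_null. The array means of the adipocyte list were −0.36 and −0.34 in control, 0.92 and 0.63 in double_null, 0.55 and 0.47 for pRb loss and −0.98 and −0.89 for p53 loss, so its scores too were lowest in p53_null. The amount of fat in each piece of skin was not measured apart from these genes, and its part in the differences was not tested.

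The list of fatty acid oxidation genes, which besides enzymes also held a carrier and a receptor, gave further calls. Of 58 probe sets for 35 genes 3 were called higher (0.323% of all probe sets were), and the median was 0.68. Without adjustment 19 were higher and 3 lower (32.8% and 5.17%, against 8.72% and 9.93% of all probe sets). Ucp3, a mitochondrial carrier of muscle and brown fat, scored −1.12 and −1.35 in control and 1.42 and 1.3 in double_null (2.59 ± 0.14, adjusted p = 0.0280). Etfdh, which passes electrons of fat oxidation to the respiratory chain, and Hcar2, a receptor for nicotinic acid and ketone bodies, rose by 2.42 ± 0.21 and 2.43 ± 0.21. The oxidative phosphorylation list had no call in either direction among 147 probe sets, with a median of −0.58.

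**Figure D4:**
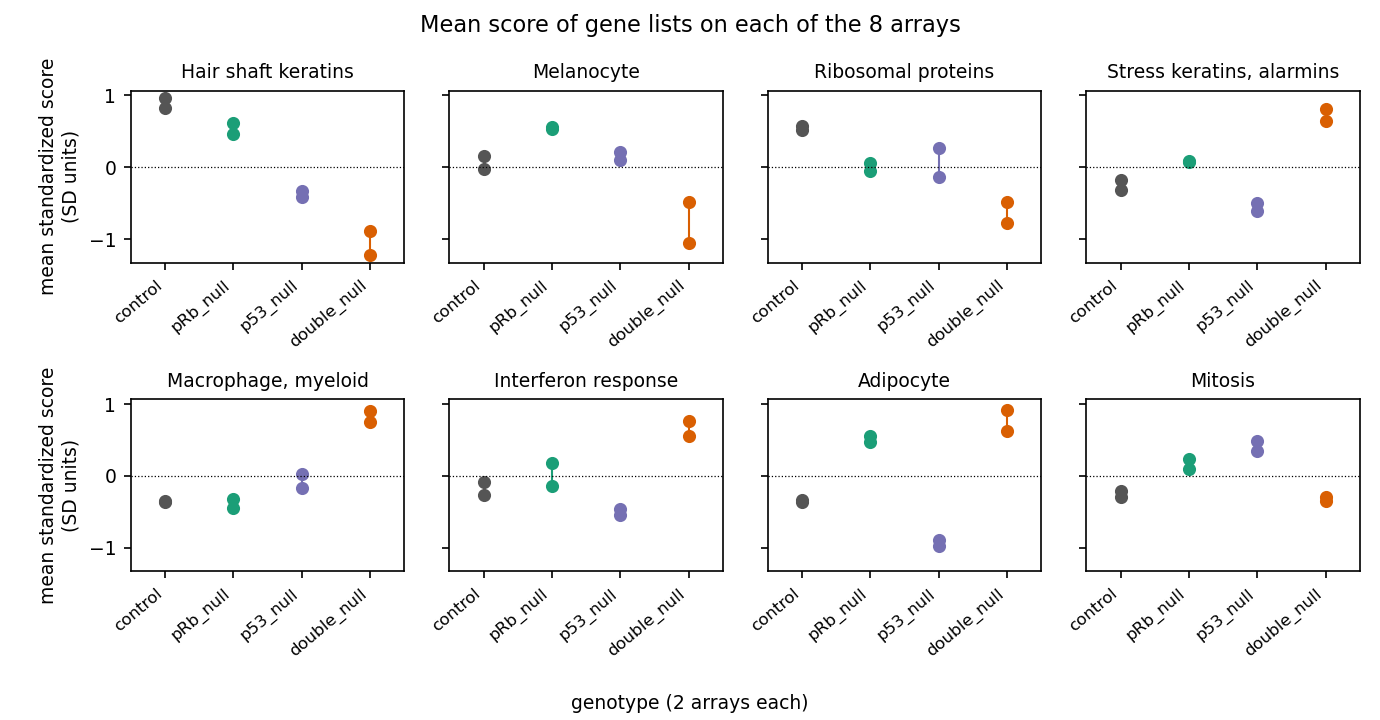
Mean standardized score (SD units) of 8 gene lists on each of the 8 arrays, with 2 points per genotype joined by a line. Hair shaft keratins run from 0.82 and 0.96 in control to −1.22 and −0.89 in double_null, the macrophage list is highest in double_null (0.91 and 0.75), and the adipocyte list is lowest in p53_null.

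Cell cycle genes, on which pRb and p53 are known to act, gave 0, 0 and 1 calls in lists of 103, 103 and 44 probe sets, near the share of all probe sets (0.849%). Of 103 probe sets for 57 DNA replication genes 0 were called, 9 were higher and 6 lower without adjustment (8.74% and 5.83%, against 8.72% and 9.93% of all probe sets), and the median was 0.23. Of 103 probe sets for 57 mitosis genes 0 were called, 8 were higher and 15 lower without adjustment (7.77% and 14.6%), and the median was 0.13. Mcm6, a subunit of the replicative helicase, scored −1.41 and −1.64 in control and 0.8 and 0.98 in double_null (2.41 ± 0.27, adjusted p = 0.0637). Pcna, the sliding clamp, scored −1.3 and −1.5 in control and 0.8 and 1.17 in double_null (2.39 ± 0.40, adjusted p = 0.105). Mki67, the proliferation antigen, scored 0.29 and 0.98 in control and −1.46 and −1.55 in double_null (−2.14 ± 0.25, adjusted p = 0.0653). The double_null arrays of Mcm6 and Pcna thus lay above the control arrays and those of Mki67 below, and none of the 3 passed the test.

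In the list of pRb, E2F and G1 genes, 1 of 44 probe sets was called. Rbbp4, a histone chaperone that binds pRb, rose by 1.62 ± 0.11 at that probe set (adjusted p = 0.0335), while another of its probe sets differed by −2.50 (adjusted p = 0.0748), so the gene has no settled direction. The G1 cyclin Ccnd1 scored 0.58 and 0.81 in control and −1.82 and −0.98 in double_null at its probe set of smallest p (−2.09 ± 0.32, adjusted p = 0.0919). Ccnd2, its relative, scored 0.66 and 0.9 in control and −1.5 and −1.25 in double_null in the same way (−2.16 ± 0.21, adjusted p = 0.0545). Without adjustment, 12 probe sets of this list were lower and 3 higher (27.3% and 6.82%, against 9.93% and 8.72% of all probe sets).

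Targets of p53 gave 2 calls among 60 probe sets for 38 genes, both higher (0.323% of all probe sets were), and a median of 0.0. Without adjustment 4 were higher and 3 lower (6.67% and 5.0%, against 8.72% and 9.93% of all probe sets). Dram1, a lysosomal protein that promotes autophagy, scored −0.19 and −0.38 in control, −0.97 and −1.15 in p53_null and 1.4 and 1.59 in double_null (1.78 ± 0.14 over control, adjusted p = 0.0371). Cdkn1a, the CDK inhibitor p21, was called higher at a probe set that scored −0.55 and −1.09 in control and 1.67 and 1.42 in double_null (2.36 ± 0.21, adjusted p = 0.0453). Its other probe set went the other way, with 1.07 and 1.12 in control, −1.72 and −0.98 in p53_null and −0.4 and −0.09 in double_null (−1.34 ± 0.29, adjusted p = 0.143), so the direction of Cdkn1a depends on the probe set. Ccng1, another target, scored −1.24 and −1.81 in control and 0.85 and 0.39 in double_null without passing the test (adjusted p = 0.113). In the apoptosis list 1 of 69 probe sets was called, where 0.849% of all probe sets were called. Bnip3, a mitochondrial protein of hypoxia and mitophagy, rose by 2.21 ± 0.17 (adjusted p = 0.0370). Without adjustment 8 of the 69 were higher and 7 lower (11.6% and 10.1%), near the shares of all probe sets (8.72% and 9.93%).

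Early response and chaperone genes gave 4 calls among 83 probe sets, all higher, where 0.323% of all probe sets were called higher. Ccn1, a secreted matrix protein, scored −0.62 and −0.52 in control and 1.76 and 1.46 in double_null (2.18 ± 0.15, adjusted p = 0.0327), and its second probe set differed by 2.07. Dusp1, a phosphatase of stress kinases, and Ier3, an early response gene, rose by 2.42 ± 0.18 and 2.46 ± 0.22. Dnajb1, a partner of chaperones, rose by 1.52 at its called probe set, but its other probe set differed by −2.32. Egr2 of the same list scored 1.14 and 1.28 in control and −1.4 and −0.93 in double_null without passing the test (adjusted p = 0.0573). Without adjustment 21 of the 83 were higher and 14 lower (25.3% and 16.9%, against 8.72% and 9.93% of all probe sets). The metallothionein Mt1, which binds zinc and answers glucocorticoids, fell by 2.20 ± 0.11 (adjusted p = 0.0276), and Mt4, the metallothionein of squamous epithelia, fell by 2.43 ± 0.10 (adjusted p = 0.0212).

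Ribosomal protein genes were lower at 29 of 96 probe sets without adjustment (30.2%, against 9.93% of all probe sets) and higher at 2. Their median was −1.56, and 3 were called lower (0.526% of all probe sets were). Rpl37a scored 1.36 and 1.39 in control and −1.29 and −1.14 in double_null (−2.59 ± 0.15, adjusted p = 0.0288), and its other 2 probe sets differed by −0.68 and −1.91. Rps18 and Rps24 fell by 2.47 ± 0.15 and 2.26 ± 0.17, and the 5 other probe sets of Rps18 differed by −2.36 to −0.02. Genes of splicing and of RNA polymerase II were lower at 31 of 111 probe sets without adjustment (27.9%) and higher at 5, with a median of −1.36. Polr2a, the largest subunit of the polymerase, was called (−2.52 ± 0.21, adjusted p = 0.0400), and its second probe set differed by −1.10. Over the same comparison the mouse RNAs and repeats among the array's own control probe sets had a median of 1.31, with 10 of 19 higher and 1 lower without adjustment; whether labelling or RNA quality took part in these differences was not tested.

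Apart from genes of elastic fibres, the other named probe sets of small p belonged to no common list. Tnmd, a protein of tendon and ligament cells, scored 0.82 and 0.8 in control and −1.52 and −1.65 in double_null (−2.39 ± 0.08, adjusted p = 0.0151), and all 4 arrays of the single losses lay between 0.2 and 0.55. Marcks, a substrate of protein kinase C, scored 1.21 and 1.13 in control and −1.42 and −1.46 in double_null (−2.61 ± 0.05, adjusted p = 0.00783), and its 5 other probe sets differed by −2.32 to −0.30. The dermal matrix list had 2 of 72 probe sets called lower (0.526% of all probe sets were) and 0 higher, with a median of −0.12. Without adjustment 10 of its probe sets were higher and 12 lower (13.9% and 16.7%, against 8.72% and 9.93% of all probe sets). Eln and Fbn2, proteins of elastic fibres, fell by 2.49 ± 0.19 and 2.55 ± 0.22 (−1.28 at a second probe set of Eln), whereas Mfap5, another protein of these fibres, differed by 2.24 ± 0.21 (adjusted p = 0.0501). Among those that rose, Sdcbp2, a scaffold protein, scored −0.82 and −0.92 in control and 1.46 and 1.59 in double_null (2.40 ± 0.09, adjusted p = 0.0157). Pla2g2f, a secreted phospholipase of the epidermis, and Gsta2, a glutathione transferase, rose by 2.39 ± 0.13 and 2.06 ± 0.12. Sh3kbp1, an adaptor of receptor endocytosis, Art3, Tbrg4 and Ptprf, a receptor phosphatase, rose by 2.52 ± 0.13, 2.31 ± 0.12, 2.51 ± 0.14 and 1.61 ± 0.09, though other probe sets of Tbrg4 and Ptprf differed by −0.13 and −2.44. Ints6l and Zcchc9 fell by 2.31 ± 0.07 and 2.59 ± 0.08.

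The lists of muscle, vessel and nerve genes held 2, 0 and 1 called probe sets among 78, 31 and 42, where 0.849% of all probe sets were called. Without adjustment 8.72% of all probe sets were higher and 9.93% lower. Skeletal muscle genes had 1 call in each direction among 78 probe sets, Chrnd, an acetylcholine receptor subunit, higher (2.44 ± 0.20) and Tnnc1, a slow troponin, lower (−0.65 ± 0.05), with a median of 0.08. Of the 78, 11 were higher and 7 lower without adjustment (14.1% and 8.97%). Endothelial genes were higher at 10 of 31 probe sets without adjustment (32.3%) and lower at 1, with none called and a median of 0.83. In the nerve list 4 of 42 probe sets were higher and 10 lower without adjustment (9.52% and 23.8%). Mbp, a myelin protein, fell by 2.06 ± 0.09 at 1 of its 8 probe sets, and the other 7 differed by −2.22 to 1.69. Xist, which is expressed from the inactive X chromosome of females, scored 0.65 and −0.23 in control and −1.57 and −1.5 in double_null at its probe set of smallest p, and the Y-linked Uty scored 0.73 and −0.09 in control and 1.15 and 1.51 in double_null. Neither passed the test (adjusted p = 0.114 and 0.262), and the sex of the pooled animals is not given, so its part in any difference was not tested.

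The design also sets the double loss against each single loss. Over the 50 hair structure probe sets the median difference from control was −0.65 in pRb_null, −1.68 in p53_null and −2.29 in double_null; these 3 comparisons share the control arrays. Compared directly, double_null was lower than pRb_null at 12 of the 50 after adjustment, with a median of −1.67, against 92 calls in either direction among all probe sets (0.407%). Against p53_null, double_null had a median of −0.56 at the hair probe sets and 0 of the 50 passed, against 8 calls among all probe sets (0.0354%), while 26 were lower and 1 higher at an unadjusted p under 0.05. Those 8 calls included Slurp1, a secreted peptide of keratinocytes, at 2.52 and Tnmd at −2.08. A miss of the threshold does not show that the skins were alike.

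The interaction, which is the difference of double_null from control minus the sum of the differences of pRb_null and p53_null, was called at 0 probe sets by limma's ordinary test, with 2364 (10.4%) at an unadjusted p under 0.05, and at 0 by the moderated test, with 2235. Whether logarithms were taken before standardizing is not stated, and the sign and size of an interaction can depend on that. The smallest adjusted p was 0.0954. Probe sets with that value went in more than 1 way. Dnajb1, a chaperone partner, scored −1.53 and −1.51 on the control arrays, 0.8 and 0.89 on those of pRb_null, 0.82 and 0.52 on those of p53_null and 0.02 and −0.02 on those of double_null, an interaction of −3.04 in which the double loss lay between control and the single losses. Ptprf had the same order, with −1.61 and −1.36 for control, 1.09 and 1.09 for pRb_null, 0.26 and 0.27 for p53_null and 0.11 and 0.15 for double_null (interaction −2.72). Hhip, described above, had an interaction of −3.06 with double_null below all other arrays at 1 of its 2 probe sets. Over the hair structure probe sets 0 of 50 interactions were called, 11 were above 0 and 4 below 0 at an unadjusted p under 0.05, and the median was −0.07. The lists differed in sign, with a median of −0.85 for the inner root sheath, −0.28 for the hair keratins and 0.49 for the keratin-associated proteins, so the near-zero median does not show that there was no interaction.

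Genes with several probe sets give a check within the arrays. Of the called probe sets, 89 had at least 1 other probe set for their gene, which made 159 pairs. The other probe set had the same sign in 122 pairs (76.7%), against 57.8% of 25642 pairs over all genes, and the same sign with an unadjusted p under 0.05 in 60 (37.7%), against 13.5%. In 12 pairs (7.55%) it had the opposite sign with an unadjusted p under 0.05, against 6.75% over all genes. Probe sets of a gene were read on the same arrays and are not independent samples. Genes whose probe sets were at one included Ide, an insulin-degrading protease, with 2.16 at the called probe set and 2.18, 2.41 and 2.53 at the others, and Rps24, with −2.26 and a range of −2.48 to −1.29. Fscn1, Ptprf, Rbbp4, Dnajb1, Arpp19, Neurl1a, Cdkn1a, Eri2, Lasp1 and Mbp each had another probe set of opposite sign and unadjusted p under 0.05, among them −2.44 against 1.61 at Ptprf and −2.32 against 1.52 at Dnajb1.

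**Figure D5:**
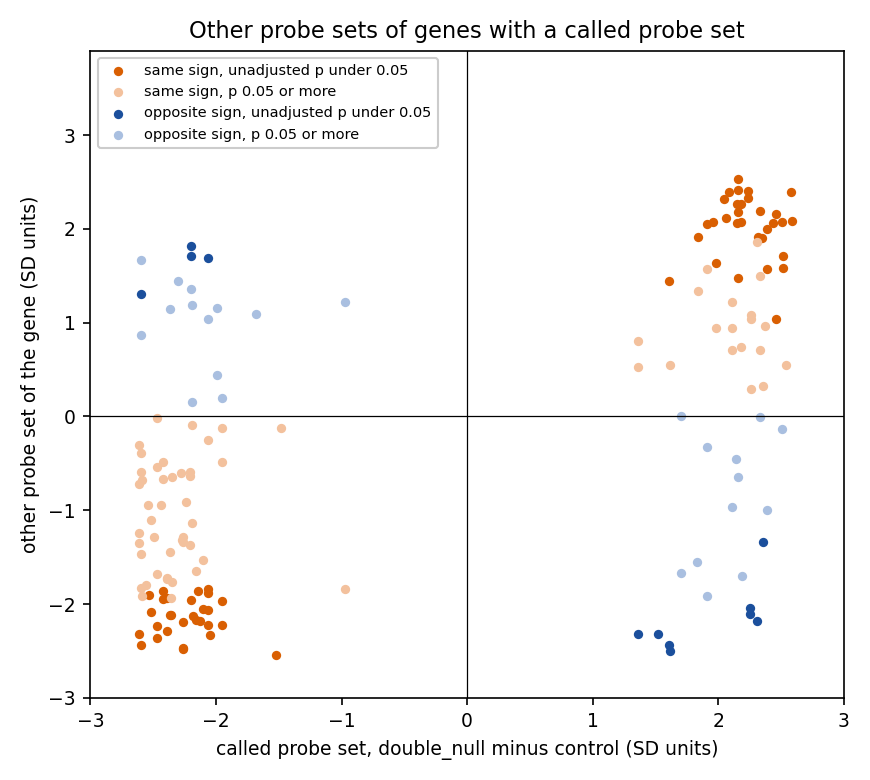
Difference between double_null and control at each called probe set (x axis, SD units) and at another probe set of the same gene (y axis, SD units), for 159 pairs. Points in the lower left and upper right have the same sign (122 pairs), and dark blue points are the 12 pairs of opposite sign with an unadjusted p under 0.05.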

How the data were processed

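Whole skin RNA of 4 genotypes was measured on 8 arrays, 2 per genotype. RMA is the only tool named, per the submitters' processing notes, and its version is unstated. Values were deposited as standardized scores with mean 0 and SD 1 per probe set (checked on the table, range −2.43 to 2.45), and whether logarithms were taken first is not stated. No filter on dim probes was possible. Names came from the platform annotation: 20393 of 22690 probe sets had 1 symbol, 691 several and 1606 none, and only those with 1 were named; 64 control probe sets were left out.

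Differences were fitted with limma 3.58.1 (R 4.3.3) without moderation, two-sided, on all 8 arrays, and the fit was tested on simulated data. This test was chosen knowing that the moderated test calls 0 here. The arrays compared, the 41 gene lists, the motifs and the tests were chosen with earlier results of these data known, so counts are exploratory. Named probe sets were Rb1, the 12 of smallest p called in each direction whose arrays do not overlap, genes with 2 called probe sets, and up to 5 members of smallest p in a list; other members and defining markers were named after their values were seen. Alternatives were quantile normalization, array medians set to 0, a replicate block, the moderated test, only the 4 arrays compared, array weights, control probe sets kept, 1 probe set per gene and each array left out. Plots used Python 3.11.15 and matplotlib 3.10.9.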

Additional observations from a re-analysis of the deposited data

Results flagged for a closer look

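A signal stood in probe sets that no comparison used, the array's own controls. Of these 64 probe sets, 16 were higher in double_null than in control at an unadjusted p under 0.05 (25.0%) and 2 were lower, with a median difference of 0.71. The 27 probe sets for Bacillus RNAs had 6 higher and 1 lower (median 1.07), the 18 hybridization controls had 0 in either direction (median 0.16), and the 19 for mouse RNAs and repeats had 10 higher and 1 lower (median 1.31). The mean score of the Bacillus probe sets was −0.75 and −0.69 on the control arrays, 0.59 and 0.41 on those of pRb_null, 0.32 and 0.16 on those of p53_null and 0.32 and −0.35 on those of double_null. Whether this took part in other differences was not tested.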

How the results depend on the processing

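The count of 192 calls was 1 under quantile normalization (1 higher, 0 lower), 0 with a replicate block, 0 with the moderated test, 0 with only the 4 arrays compared, and 125 of 12393 genes with 1 probe set per gene (46 higher, 79 lower). With each array left out it was 1 to 8, with 0 to 3 higher and 1 to 5 lower, and the interaction gave 0 to 1. Setting array medians to 0 gave 205, of which 135 were among the 192, and array weights gave 142, all among them. Whether the replicate numbers pair the samples is not known. Deviations of same-numbered control and double_null arrays had r = −0.008. Over the 6 pairs of genotypes r ran from −0.163 (pRb_null and double_null) to 0.197 (p53_null and double_null). With 2 arrays per genotype these values cannot exclude a shared batch. All 192 kept their direction where they were tested, and of 73 named probe sets called, 64 were called in 0 of the 8 fits that leave out an array, 7 in 2 of them, and 2, Gprc5d and the first probe set of Krtap16-3, in 6. The medians of hair keratins (−2.49 to −2.23) and macrophage genes (1.37 to 1.51) held their sign in every alternative. List medians that turned were those of pRb and E2F genes (0.02 under quantile normalization, 0.08 with 1 probe set per gene) and, with 1 probe set per gene, apoptosis (−0.18), glucocorticoid response (−0.52) and oxidative phosphorylation (0.09). With an array left out, medians that crossed 0 ranged from −1.09 to 0.04 for basal keratinocyte, −0.22 to 0.05 for pRb and E2F, −0.27 to 0.58 for DNA replication, −0.1 to 0.13 for mitosis, −0.05 to 0.11 for early response, −0.06 to 0.24 for muscle, −0.39 to 0.16 for dermal matrix, −0.84 to 0.26 for sebaceous gland, −0.73 to 0.13 for sterol synthesis and −0.11 to 0.16 for mesenchymal transition genes. The causes were not tested. Signal over background is unknown, since the scores hold no level.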
